A study of Xenopus laevis with 4 samples.

Results

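Mitochondrial ribosomal proteins build the ribosome inside the mitochondrion, and 41 of the 15491 probesets tested on the array read one of them. The rule takes probesets whose single gene symbol begins with mrpl or mrps and a number, and uses no measured value. The 41 probesets read 38 gene copies of 36 genes, 26 probesets the L copy and 15 the S copy (L and S mark the long and short homeologous chromosomes of the allotetraploid Xenopus laevis). In RefSeq (assembly Xenopus_laevis_v10.1) there are 94 gene copies of 74 genes under such symbols, and all 41 probesets carry the same symbol there. No other probeset had such a RefSeq symbol by its gene ID. Probesets with several symbols or none in the platform annotation can be missed by this check. Genes of the family read only by such probesets were not analysed as members.

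The arrays compared N1 pseudoblastemas with WT blastemas, 2 arrays of each, at 3 days after hindlimbs were amputated at NF stage 52. N1 tadpoles carry a single-insertion transgene, from 1 founder line, that makes the BMP inhibitor Noggin under the Hsp70 heat shock promoter, and WT tadpoles were siblings without it. All tadpoles of both groups were heat shocked, before amputation and again on the following days. Each array holds RNA pooled from 20 hindlimbs, dissected as whole stump tips, so fewer cells of a type and less RNA per cell cannot be told apart.

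The mitochondrial ribosome translates the few proteins that mitochondrial DNA encodes, all of them subunits of the respiratory chain and ATP synthase in vertebrates. All of its proteins are encoded in the nucleus, made in the cytosol and imported. The large subunit holds the peptidyl transferase centre and the exit tunnel, and the small subunit decodes the mRNA. Some of the proteins descend from bacterial ribosomal proteins, while others are found only in mitochondria. By this division 14 probesets read large subunit proteins shared with bacteria and 14 large subunit proteins particular to mitochondria. Mrps18a and mrps30 sit in the large subunit despite their names and are counted there as particular to mitochondria, although mrps18a is related to a bacterial small subunit protein. For the small subunit the numbers were 8 shared with bacteria and 5 particular to mitochondria.

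The arrays were on a common scale, with a median signal between 157 and 175. The signal of nog.L, which encodes Noggin, was 75.6 and 52.2 in N1 and 91.8 and 95.5 in WT, and whether its probes lie in the part that the transgene carries is not known here. The array has a control probeset for EGFP, and the transgene carries a GFP reporter driven in the lens. That probeset read 123 and 108 in N1 and 16.1 and 29.4 in WT. Of 16 probesets for limb mesenchyme and blastema genes none passed the test, 9 were lower and 7 higher in N1 by mean, and they summed to 2963 and 3252 in N1 and 3571 and 3928 in WT. The smallest adjusted p among them was that of hoxd13.S (0.341 from limma), at 269.6 and 209 in N1 and 106 and 141 in WT. A probeset of hoxa11.S went the other way, at 310 and 684 in N1 and 709 and 964 in WT. Both N1 arrays were below both WT arrays in 5 of the 16 (31.25%, beside 17.9% of all probesets). They were above in 1 (6.25%, beside 24.2%). The N1 arrays differed from each other in several marker lists. Of 22 skeletal muscle probesets 20 were higher on N1 array 1 than on N1 array 2 (beside 57.1% of all probesets). Their summed signal was 3771 and 2457 on N1 arrays 1 and 2, against 2194 and 2156 on the WT arrays. Pigment cell probesets summed to 5338 and 3098 in N1 and to 2182 and 2289.9 on the WT arrays. Red cell probesets summed to 42494 and 50451 in N1, against 21493 and 17571 in WT, with most of each sum from hba2.L and hba3.L. At an adjusted p under 0.05 in limma 2 of the 7 were higher in N1, beside 0.110% of all probesets. Of 6 cartilage probesets none passed the test, and they summed to 1546 and 1709.5 in N1 and 2887 and 2142 in WT. Of 13 epidermis probesets none passed it either, and 4 were lower and 9 higher in N1 by mean. Epcam.L had the smallest adjusted p (0.0536 from limma), at 3492 and 3697 in N1 and 1657 and 1462 in WT. Krt19.S went the other way, at 219 and 207 in N1 and 616 and 470 in WT (adjusted p = 0.111 from limma). Its other copy, krt19.L, was higher in N1, at 1355 and 883 in N1 and 444 and 313 in WT (adjusted p = 0.0942 from limma).

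No mitochondrial ribosomal protein probeset passed an adjusted p of 0.05 in limma in either direction. The background of such calls was 0.0129% of all probesets lower in N1 and 0.110% higher in N1, so a count of 0 among 41 is near it. The smallest adjusted p was 0.266, for mrps34.S. At an unadjusted p under 0.05, 5 probesets were lower in N1 pseudoblastemas, 12.2% of the 41, beside 4.29% of all probesets and 7.02% of those with at least the median level. None was higher in N1 at that threshold, beside 6.82% of all probesets. The median difference of the 41 probesets, N1 minus WT, was -0.09 on the log2 scale, and that of all probesets tested was 0.07. At or above the median level it was -0.11 for 38 members and -0.004 for all probesets. With quantile normalisation it was -0.065 for the 41 and -0.021 for all probesets tested. Of the 41, 35 lay within 0.5 on the log2 scale (85.4%, beside 65.1% of all probesets and 79.7% of those at or above the median level). The middle of the distribution ran from -0.31 (25th percentile) to 0.10 (75th percentile). The standard error of a difference had a median of 0.23, so these arrays do not show that the genes were unchanged.

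**Figure D1:**
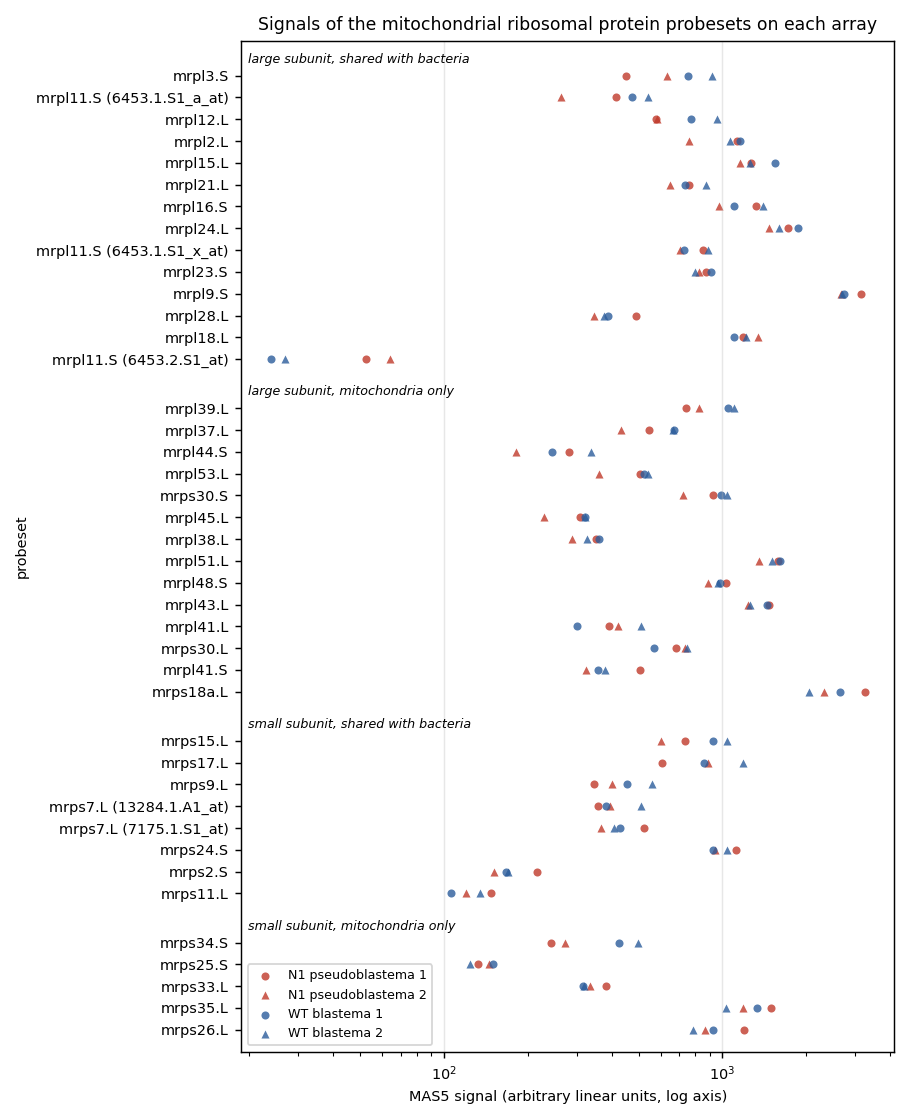
MAS5 signal of each of the 41 probesets (rows, grouped by subunit and origin) on the 2 N1 arrays (red) and the 2 WT arrays (blue), on a log axis; circles are replicate 1 and triangles replicate 2. The red and blue points overlap in most rows, and mrps34.S (243 and 273 in N1 against 424 and 496 in WT) is among the 11 rows in which both red points lie left of both blue ones.

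The 5 probesets at an unadjusted p under 0.05 were those of mrps34.S, mrps15.L, mrpl12.L, mrpl3.S and mrpl39.L. Mrps34.S, a small subunit protein particular to mitochondria, had signals of 243 and 273 in N1 and 424 and 496 in WT. Both N1 arrays lay below both WT arrays, and the mean was 258 ± 21.0 in N1 and 459.9 ± 50.8 in WT (SD, n = 2 each), 1.78-fold lower in N1. The log2 difference was -0.83 (SE 0.25), with a 95% interval from -1.40 to -0.27 (adjusted p = 0.266 from limma).

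Mrps15.L, the counterpart of a bacterial protein that binds the small subunit rRNA, had signals of 736 and 600.2 in N1 and 926 and 1042 in WT. The gap between the means was larger than the spread in either group, 668 ± 95.8 in N1 and 984 ± 81.5 in WT (SD, n = 2 each), 1.47-fold lower in N1 (adjusted p = 0.375 from limma). Mrpl12.L encodes the protein of the flexible stalk that recruits translation factors to the large subunit. It was at 577 and 581 in N1, nearly equal, and 772 and 953 in WT, 1.49-fold lower in N1 (adjusted p = 0.376 from limma).

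Mrpl3.S, whose bacterial relative reaches towards the peptidyl transferase centre, had signals of 452 and 634 in N1 and 753 and 918 in WT. It was 1.54-fold lower in N1 (adjusted p = 0.392 from limma). N1 array 2 (634) lay closer to WT array 1 (753) than to N1 array 1 (452). Mrpl39.L, a large subunit protein particular to mitochondria, had signals of 739 and 825 in N1 and 1049.5 and 1099 in WT, 1.37-fold lower in N1 (adjusted p = 0.429 from limma). These 5 probesets stem from both subunits and from both origins. These p values depended on the arrays and the setting: without WT replicate 2 none of the 5 was under 0.05 (0.0852 for mrps34.S to 0.221 for mrpl12.L), in a fit that assumes the lone WT array to vary like the N1 arrays. Without the variance trend mrps34.S alone was (0.0281). With median centring of the arrays all 5 were, and so were 2 more, mrpl37.L and a probeset of mrpl11.S.

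**Figure D2:**
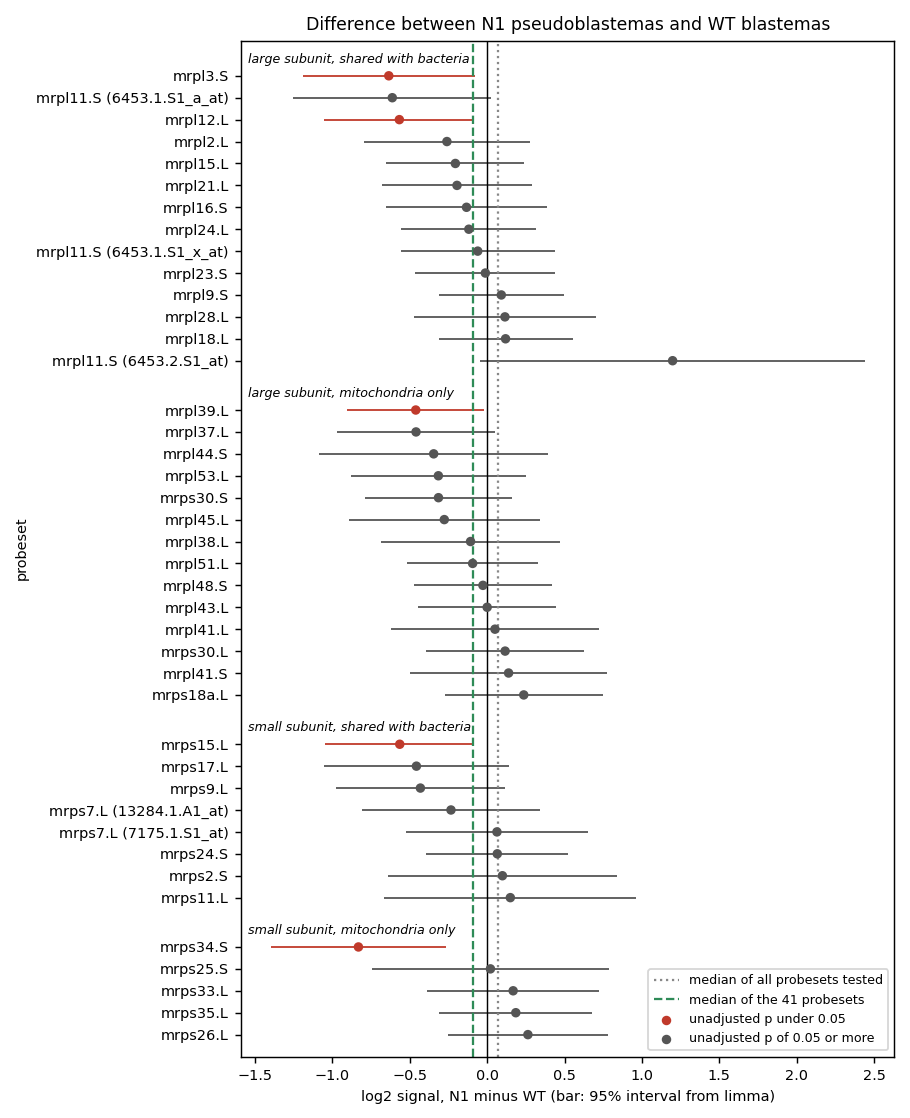
Difference of log2 signal, N1 minus WT, for each of the 41 probesets (points) with its 95% interval from limma (bars), grouped by subunit and origin; red marks an unadjusted p under 0.05. The 5 red points lie left of 0, while the median of the 41 (dashed, -0.09) and that of all probesets (dotted, 0.07) lie close to it.

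Groups did not overlap in 13 of the 41 probesets. Both N1 arrays were below both WT arrays in 11, which is 26.8% of the 41 beside 17.9% of all probesets and 24.1% of those at or above the median level. Both N1 arrays were above both WT arrays in 2, 4.88% beside 24.2% of all probesets and 23.2% of those at or above the median level. The 6 further probesets below WT were one of mrpl11.S and those of mrpl37.L, mrps9.L, mrps30.S, mrpl53.L and mrpl45.L. Mrpl37.L, a large subunit protein particular to mitochondria, had signals of 544 and 434 in N1 and 671 and 665 in WT (adjusted p = 0.503 from limma). Mrps9.L, the counterpart of a bacterial protein of the small subunit head, was at 347 and 402 in N1 and 453 and 558 in WT (adjusted p = 0.557 from limma). In both genes the means differed by less than 1.5-fold. By mean signal 2 of the 41 probesets, mrps34.S and mrpl3.S, were over 1.5-fold lower in N1 4.88% beside 9.10% of all probesets and 5.91% of those at or above the median level. One probeset, of mrpl11.S, was over 1.5-fold higher, 2.44% beside 19.0% of all and 8.29% of those at or above the median level.

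The large subunit stalk was read by 5 probesets of 3 genes, and its proteins bind and activate the factors that drive elongation. Mrpl53.L, a protein particular to mitochondria at the foot of the stalk, had signals of 506 and 360.2 in N1 and 523 and 539 in WT. N1 array 1 was close to WT and N1 array 2 was low. Mrpl11.S, which binds the rRNA at the base of the stalk, was read by 3 probesets that did not move alike. The one ending in 1.S1_a_at had signals of 416 and 264 in N1 and 475 and 539.8 in WT, 1.49-fold lower in N1 (adjusted p = 0.475 from limma). The one ending in 1.S1_x_at had signals of 852 and 702 in N1 and 729.6 and 891 in WT, which overlap. The one ending in 2.S1_at was dim, at 52.7 and 64.4 in N1 and 24.0 and 26.9 in WT, 2.30-fold higher in N1 (adjusted p = 0.469 from limma). Its log2 difference of 1.20 had a standard error of 0.54, the widest of the 41, and its signals were below the median level (a signal of 165). The 3 probesets thus gave log2 differences of -0.61, -0.06 and 1.20 for 1 gene copy by the platform annotation. Whether any of them also binds other transcripts was not tested.

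Around the exit tunnel, where the new protein leaves the large subunit, 4 genes were measured and all 4 had a difference below 0, between -0.34 and -0.01. Of all probesets 44.1% had a difference below 0. Mrpl45.L, which in mammals anchors the ribosome to the inner membrane, had signals of 307 and 229 in N1 and 321 and 322 in WT. The WT arrays agreed closely and N1 array 2 was the low one. Mrpl44.S, a protein with a ribonuclease III fold, had signals of 282 and 182 in N1 and 244 and 339 in WT, and these overlap. Mrpl23.S averaged 848 ± 31.4 in N1 and 856 ± 79.6 in WT (SD, n = 2 each), and mrpl24.L 1596 ± 176 in N1 and 1732 ± 187 in WT (SD, n = 2 each). For all 4 genes the adjusted p was between 0.740 and 0.988 from limma.

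The central protuberance, which faces the small subunit and touches the tRNAs, was read by 3 genes. Mrpl18.L was at 1184 and 1339 in N1 and 1102 and 1219.9 in WT. Mrpl38.L was at 352 and 288 in N1 and 361 and 325 in WT, and mrpl48.S at 1031 and 889 in N1 and 984 and 966 in WT. Signals overlapped in all 3, with log2 differences of 0.12, -0.11 and -0.03. The 95% interval of mrpl48.S ran from -0.47 to 0.42.

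Large subunit probesets had a median difference of -0.11 on the log2 scale, N1 minus WT, with 19 of 28 below 0 (67.9%). Small subunit probesets had a median of 0.06 with 5 of 13 below 0 (38.5%). Of all probesets 44.1% were below 0, and 50.5% of those at or above the median level. With median centring, which lowers every difference by 0.11, the small subunit median turned to -0.05. Then 9 of 13 were below 0, and 22 of 28 of the large subunit. The median of all probesets tested was then -0.036, and their share below 0 was not counted with centring. With quantile normalisation the medians were -0.078 for the large subunit (17 of 28 below 0) and 0.004 for the small (6 of 13). The median of all probesets tested was -0.021 in that setting. Without N1 replicate 1 the subunit medians were -0.24 (large) and -0.16 (small). The difference between the subunits was not tested. Proteins shared with bacteria had a median of -0.13 over 22 probesets, and those particular to mitochondria one of -0.03 over 19. The spread within each group was wider than these gaps: small subunit probesets ranged from -0.83 (mrps34.S) to 0.26 (mrps26.L), and large subunit probesets from -0.63 (mrpl3.S) to 1.20 (the dim mrpl11.S probeset).

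**Figure D3:**
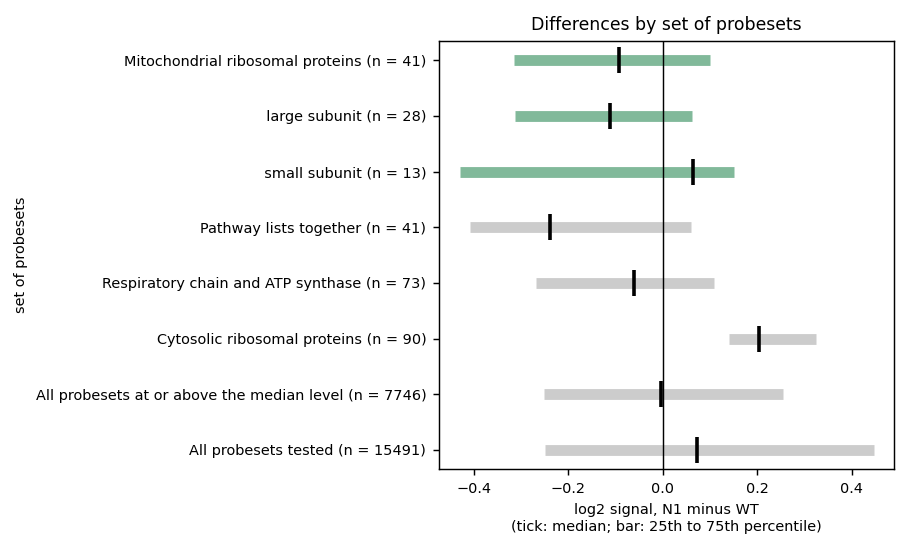
Median (tick) and 25th to 75th percentile (bar) of the log2 difference, N1 minus WT, for the mitochondrial ribosomal proteins and their subunits (green) and for other sets of probesets (grey). The medians are -0.09 for the 41 probesets, -0.24 for the pathway lists together, -0.06 for the respiratory chain and 0.20 for cytosolic ribosomal proteins.

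Probesets with a higher mean in N1 had small differences, apart from the dim one of mrpl11.S. Mrps26.L, a small subunit protein particular to mitochondria, had signals of 1199 and 869 in N1 and 922 and 784 in WT, 1.21-fold the WT mean. N1 array 1 was high and N1 array 2 lay between the WT arrays (adjusted p = 0.710 from limma). Mrps18a.L had signals of 3241 and 2319.8 in N1 and 2637 and 2053 in WT. Mrps35.L was at 1498 and 1187 in N1 and 1330.2 and 1033 in WT. In both of these replicate 1 was above replicate 2 in each group and the groups overlapped.

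Mrps33.L was the other probeset in which both N1 arrays were above both WT arrays. Its signals were 381 and 335 in N1 and 316 and 319.8 in WT, 1.13-fold higher in N1 (adjusted p = 0.843 from limma). Among the 4 probesets with the brightest signals, those of mrpl9.S, mrps18a.L, mrpl24.L and mrpl51.L, groups overlapped throughout. Mrpl9.S had signals of 3135 and 2659 in N1 and 2739.6 and 2679 in WT, and mrpl51.L of 1577 and 1355 in N1 and 1611 and 1509 in WT. The mean of mrpl9.S was higher in N1 as deposited and lower in N1 with median centring (log2 difference of -0.02). Signals of different probesets do not rank their transcripts, because probes differ in how well they bind.

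Both homeologs were measured for 2 genes. For mrpl41, a large subunit protein that in mammals also binds BCL2, the L copy had signals of 392 and 422 in N1 and 302 and 511 in WT. The S copy had signals of 505 and 324 in N1 and 357 and 378 in WT. Neither copy separated the groups, and the log2 differences were 0.05 for L and 0.14 for S. For mrps30 the copies were on opposite sides of 0. The S copy had signals of 922 and 723 in N1 and 990.2 and 1039.8 in WT, with both N1 arrays lower. The L copy had signals of 683 and 732 in N1 and 568 and 749 in WT, with N1 between them. Their differences of -0.31 (SE 0.21) and 0.12 (SE 0.22) have overlapping 95% intervals, and the difference between the copies was not tested. Mrps7.L was read by 2 probesets, with differences of -0.23 and 0.06.

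Of the other probesets with a lower mean in N1, mrps17.L, the counterpart of a bacterial small subunit protein, had signals of 607 and 891 in N1 and 857 and 1189 in WT. Replicate 2 was above replicate 1 in each group and the groups overlapped (log2 difference of -0.46). Mrpl2.L, a large subunit protein near the peptidyl transferase centre, had signals of 1132 and 756 in N1 and 1154 and 1063 in WT. N1 array 2 alone was low, and without it the log2 difference of -0.26 was 0.03. Mrpl15.L was at 1262 and 1161 in N1 and 1543 and 1261 in WT, with WT array 1 above the other arrays. The 8 remaining probesets, of mrpl16.S, mrpl21.L, mrpl28.L, mrpl43.L, mrps2.S, mrps11.L, mrps24.S and mrps25.S, had log2 differences between -0.19 (mrpl21.L) and 0.15 (mrps11.L).

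The N1 arrays were not alike for these genes. N1 array 1 was above N1 array 2 in 29 of the 41 probesets (70.7%, beside 57.1% of all probesets and 51.2% of those at or above the median level), with a median gap of 0.25 on the log2 scale. N1 array 2 was the lowest of the 4 arrays in 22 of the 41 (53.7%, beside 26.0% of all probesets and 26.4% of those at or above the median level), and N1 array 1 in 7. The summed signal of the 41 was 34273 and 29414 on N1 arrays 1 and 2, against 33739 and 34156 on the WT arrays, so N1 array 2 alone was low. Without N1 replicate 2 the median difference of the 41 was 0.03, beside 0.15 for all probesets tested. Both subunits were then above 0 by their medians (0.02 and 0.19). Without N1 replicate 1 the median of the 41 was -0.20, beside 0.017 for all probesets tested. With all 4 arrays these medians were -0.09 and 0.07. The skeletal muscle probesets had a median gap of 1.43 between N1 arrays 1 and 2, and the pigment cell probesets one of 0.78. Cytosolic ribosomal proteins also were higher on N1 array 1 in 73 of 90 probesets, with a median gap of 0.21, and the respiratory chain and ATP synthase in 49 of 73, with a median gap of 0.22. Proliferation genes were lower in N1 by mean in 12 of 15 probesets (80%, beside 44.1% of all probesets and 50.5% of those at or above the median level). Their median difference was -0.18, and they summed to 31332 and 32804 in N1 and 36653 and 36884 in WT. The part of these lists in the differences of the mitochondrial ribosomal proteins was not tested.

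**Figure D4:**
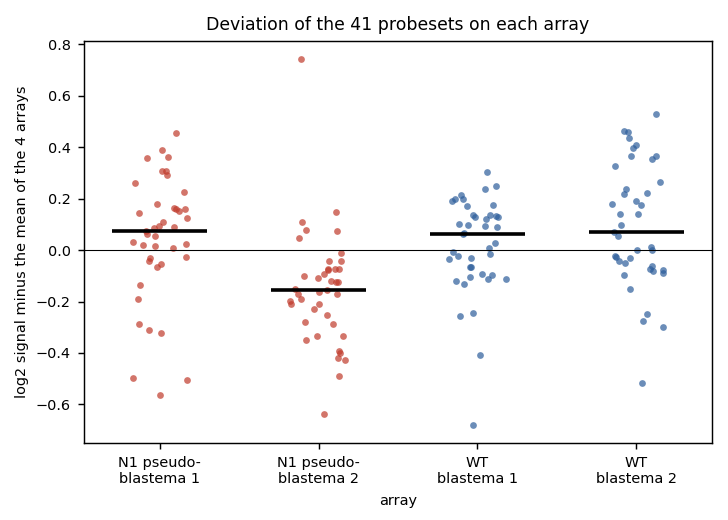
Deviation of log2 signal from the mean of the 4 arrays for each of the 41 probesets (points) on the 2 N1 arrays (red) and the 2 WT arrays (blue), with the median of each array (line). The median is 0.07 on N1 array 1 and -0.16 on N1 array 2, against 0.06 and 0.07 on the WT arrays.

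Of the proteins of the mitochondrial ribosome that carry other names, ptcd3.L alone of 6 listed was measured. It encodes a pentatricopeptide repeat protein of the small subunit. Its signals were 546 and 609.7 in N1 and 797 and 931 in WT, with no overlap (log2 difference of -0.58, adjusted p = 0.366 from limma). Genes of mitochondrial ribosome assembly and rRNA modification were read by 7 probesets. None rose or fell and 5 were below 0, with a median of -0.20. Mterf3.S, which binds mitochondrial nucleic acid, had signals of 187 and 282 in N1 and 312 and 328 in WT. Eral1.L, a GTPase that chaperones the small subunit rRNA, was very dim, at 27.3 and 26.6 in N1 and 11.6 and 9.43 in WT. Rcc1l.L, a factor of rRNA stability, overlapped between groups, at 1127 and 1573 in N1 and 1401 and 2034 in WT.

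Mitochondrial translation factors and their partners were read by 4 probesets, all below 0, with a median of -0.47 and none past the adjusted threshold. Tsfm.L, the exchange factor that recharges the elongation factor Tu, had signals of 269.9 and 272 in N1 and 381 and 404 in WT (adjusted p = 0.469 from limma). Lrpprc.L, which stabilises mitochondrial mRNAs, had signals of 143 and 189 in N1 and 252 and 252 in WT (adjusted p = 0.503 from limma). Both N1 arrays were below both WT arrays for these and for mief1.S, at 369 and 319 in N1 and 428 and 384 in WT. That is 3 of 4 (75%, beside 17.9% of all probesets and 24.1% of those at or above the median level). Mief1.S was counted because the list holds it, and whether it takes part in translation was not tested. In mtif3.L the groups overlapped, at 333 and 267 in N1 and 231 and 679 in WT.

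Mitochondrial tRNA synthetases were read by 5 probesets, 4 of them with both N1 arrays below both WT arrays (beside 17.9% of all probesets) and none past the adjusted threshold. Pars2.L, for proline, had the smallest p of all these lists, with signals of 129.5 and 201 in N1 and 269.7 and 358 in WT (log2 difference of -0.95, adjusted p = 0.344 from limma). Hars2.L, for histidine, was at 2054 and 2069 in N1 and 2408 and 2882 in WT, and rars2.S, for arginine, at 257 and 238 in N1 and 302 and 329 in WT. In the remaining one, of cars2.L, the groups overlapped.

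Genes of mitochondrial DNA maintenance and transcription were read by 6 probesets with a median of -0.26. Tfam.L, which packages mitochondrial DNA and starts its transcription, had signals of 518 and 495 in N1 and 640.5 and 725 in WT (adjusted p = 0.513 from limma). Twnk.L, the helicase, was at 84.8 and 45.6 in N1 and 86.9 and 106 in WT, and polg.L, the polymerase, at 13.1 and 52.3 in N1 and 39.4 and 48.2 in WT. The groups overlapped in polg.L and not in tfam.L and twnk.L. Of the 6 probesets 4 were below 0 and 2 above it. Both N1 arrays were below both WT arrays in 2 (33.3%, beside 17.9% of all probesets). Nuclear regulators of mitochondrial genes were read by 18 probesets of 7 genes, with a median of -0.14 and none past the threshold. Their differences were below 0 in 11 and above it in 7, and both N1 arrays were below both WT arrays in 6 (33.3%, beside 17.9% of all probesets). Those 6 read only myc, mycn and yy1, with more than 1 probeset for myc and for mycn. No probeset of nrf1, gabpa, gabpb1 or esrra was among them. Of the 18 probesets, the 3 with the smallest p were all lower by mean. Of these a myc.S probeset was at 264 and 256 in N1 and 362 and 300.4 in WT, mycn.S at 870.2 and 878 in N1 and 1087 and 997 in WT, and yy1.S at 950.1 and 1019 in N1 and 1099 and 1249.9 in WT. Another myc.S probeset had a difference of 0.06, a myc.L probeset of 0.07 and nrf1.S of 0.11.

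Over these pathway lists together, 41 probesets of 30 genes had a median of -0.24, and both N1 arrays were below both WT arrays in 17 (41.5%, beside 17.9% of all probesets and 24.1% of those at or above the median level). Among these pathway probesets 2 were lower at an unadjusted p under 0.05 (4.88%, beside 4.29% and 7.02%), and 0 higher. By mean signal 3 were over 1.5-fold lower (7.32%, beside 9.10% and 5.91%) and 2 higher (4.88%, beside 19.0% and 8.29%). The 90 probesets of cytosolic ribosomal proteins had a median of 0.20, with both N1 arrays above both WT arrays in 59 (65.6%, beside 24.2% of all probesets and 23.2% of those at or above the median level). At an unadjusted p under 0.05, 5 of them were higher (5.56%, beside 6.82% of all probesets). The 73 probesets of the respiratory chain and ATP synthase had a median of -0.06, with 8 lower (10.96%, beside 4.29% of all probesets and 7.02% of those at or above the median level) and 1 higher at that threshold (1.37%, beside 6.82% and 8.31%). None of the probesets of either set passed the adjustment. The differences between these sets were not tested.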

How the data were processed

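RNA of 2 N1 pseudoblastema and 2 WT blastema pools was amplified over 2 labelling cycles and hybridised to 1 Xenopus laevis GeneChip each. The authors made the deposited values, MAS5 signal intensity on a linear scale, with GCOS (versions not given in the sources used here), and each array has a mean of 500.1 after trimming 2% at each end. No detection calls were used here. The 120 Affymetrix control probesets were left out, and of the 15491 tested 9304 had 1 symbol, 195 several and 5992 none in the platform annotation.

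Log2 signals were compared as N1 minus WT in R 4.3.3 by limma 3.58.1, whose moderated test had a trend fitted to the variance, with no value added, and adjusted by Benjamini-Hochberg over all 15491 probesets. The test was tested on simulated data. With 2 arrays a group the smallest two-sided p of an exact permutation test is 0.333. The small number of arrays limits the precision. Folds are ratios of mean signals. Members and lists were chosen with earlier results of these data known. Named with their signals were the 14 members lower in N1 and the 8 higher in N1 with the smallest p, the 4 brightest, both copies of a gene, members of 3 sites of the large subunit, and 3 probesets of each pathway list. The cytosolic ribosomal and respiratory chain sets were added after the data were seen. A planned search of promoters for motifs was not run.

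Alternatives were no variance trend, level filters at the median and the 25th percentile, quantile normalisation, centring on the median, a block for the replicate number, 16 or 64 added to the signals, 1 probeset per gene copy, control probesets included, and each array left out.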

Additional observations from a re-analysis of the deposited data

How the results depend on the processing

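No member was called at an adjusted p under 0.05 in either direction under any of the 14 alternatives (limma). The labels do not say whether arrays with the same replicate number belong together. The deviations of same-numbered arrays correlated at 0.03 over all probesets and at 0.36 over the members, and with only 2 pairs this cannot settle it. With the replicate number as a block, 5 members were lower in N1 at an unadjusted p under 0.05, a mrpl11.S probeset (0.0443) in place of mrpl39.L (0.0512). Without the variance trend there was 1 lower and 1 higher, and with 16 or with 64 added 1 higher, the dim mrpl11.S probeset in each case. With 64 added 1 member was over 1.5-fold lower and 0 higher. With median centring, which lowers N1 minus WT by 0.11, 21 members did not overlap and were lower in N1, 1 was higher, and 5 were over 1.5-fold lower; mrpl9.S turned to -0.017. The level filters and the choice of 1 probeset per gene copy drop the dim mrpl11.S probeset, which leaves 1 member above WT without overlap and 0 over 1.5-fold higher. With an array left out, the lone array of a group is assumed to vary like the other group. Members lower in N1 at an unadjusted p under 0.05 ranged from 0 (without WT replicate 2) to 8 (without N1 replicate 1) and higher ones from 0 to 2 (without N1 replicate 2). Members without overlap ranged from 13 lower with 14 higher (without N1 replicate 2) to 27 lower with 3 higher (without N1 replicate 1), since fewer arrays have to agree. Those over 1.5-fold lower ranged from 1 (without WT replicate 2) to 6 (without WT replicate 1), and 1 was higher each time. The share of all probesets was not counted under these alternatives. These counts of members therefore have no background beside them. The median of the members ranged from -0.20 (without N1 replicate 1) to 0.027 (without N1 replicate 2). In the same 2 settings the median of all probesets tested was 0.017 and 0.149. Single members turned sign with an array left out. Among the 14 lower and 8 higher ones with the smallest p, mrpl2.L ranged from -0.55 to 0.032. Mrps18a.L ranged from -0.0044 to 0.48, mrps30.L from -0.083 to 0.32 and mrpl9.S from -0.027 to 0.21. Further members of the 41 also turned sign, such as mrpl41.L (-0.33 to 0.43), mrpl41.S (-0.18 to 0.46) and mrpl16.S (-0.35 to 0.087). Level limits what these arrays show: 3 of the 41 probesets lay below the median level.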
